A study of Mus musculus with 5 samples.

Results

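The regions described here are the single bases of 3' UTRs, at least 100 nt along the spliced mRNA from the nearest downstream annotated transcript end, at which the CLIP-seq reads of poly(A) binding protein PABPC1 carried a deletion. The authors' pooled list held 11907 deletion sites. Each was placed by strand on the basic transcripts of GENCODE M21 (mouse genome build mm10), with 3' UTR taking precedence over the other regions. The distance was taken to the nearest end among basic transcripts that held the base in a 3' UTR, not among all transcripts over it. Of the 8755 sites in 3' UTRs, 4671 lay 100 nt or more from the nearest downstream end and are called far sites, and the other 4084 are called near sites. Far sites made up 53.4% of 3' UTR sites (exact 95% binomial interval 52.3 to 54.4%) and 39.2% of all sites. They lay on 2068 genes.

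All samples were MEL cells, a mouse erythroleukemia cell line, grown without a treatment named in the labels. The growth protocol also named a fibroblast line, and markers of both are given below. In 3 CLIP-seq samples the cells were irradiated with ultraviolet light (400 mJ/cm2), their lysate was digested with RNase (10 min), and the RNA joined to PABPC1 was recovered with an antibody and sequenced. In 2 further samples poly(A)+ mRNA was sequenced. The authors pooled the replicates of each kind, so the files used here hold 1 list of deletion sites, 1 list of peaks and 1 RPKM value a gene, with no replicate error, and the design has no control group. The intervals given below are exact binomial intervals, or order-statistic intervals of medians, at the 95% level. They cover counting error only, since sites of 1 gene share a transcript and it is not known whether the tags are independent molecules.

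PABPC1 is the main cytoplasmic protein on the poly(A) tail, where it supports translation and stands between the tail and the enzymes that shorten it. Its RNA recognition motifs prefer adenines, and it can also bind adenine-rich and adenine-uridine-rich stretches inside an mRNA. The protein is known to bind an adenine-rich element in the 5' UTR of its own mRNA. During reverse transcription, an enzyme that reads past an amino acid left on a cross-linked base may skip that base, so a deletion marks a contact more closely than a whole peak does. A deletion in the cells' own DNA would be read in the same way, and no genome sequence of these cells was analysed here.

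Most far deletions of 1 or 2 bases fell into a few short sequence settings, which were also found at near deletions and in coding sequence. A far deletion lay most often in a run of 3 or 4 thymines followed by adenine (uridines in the mRNA). The other frequent settings were 2 or 3 adenines followed by thymine and adenine, an alternating stretch of adenine and thymine, and, less often, a run of 6 or more adenines. These settings were defined after the deleted bases had been seen. Below are the 4 sites of most deletions in each, 1 a gene, with 1 exception named in the third set, read 5' to 3' from the GENCODE M21 transcripts. Capitals mark the stretch within which the deleted base or bases could be moved without changing the read, so that the exact base inside the capitals is not known. The first set shows 1-base deletions in 3 thymines before adenine.
Clta: ccaaaccttttgtcTTTagagttgatcat
Mbnl1: acaatggccacttgTTTaatgacttggtt
Brix1: aaaactgaaatcTTTaagtcggtgttggt
Gabarap: cattcccactctgaTTTagacttcttgat
These windows belong to Clta at chr4:44032669-44032697 (plus strand), Mbnl1 at chr3:60629461-60629489 (plus strand), Brix1 at chr15:10476208-10476236 (minus strand) and Gabarap at chr11:69994734-69994762 (plus strand). Clta encodes a clathrin light chain, Mbnl1 a splicing regulator of the muscleblind family, Brix1 a factor of large ribosomal subunit assembly and Gabarap a ubiquitin-like protein of autophagy.

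The second set shows 1-base deletions in 2 adenines before thymine and adenine, which is also how the main poly(A) signal AATAAA begins.
Elovl1: ctgaagaggtcagcAAtaatctgtcactg
Ranbp2: actttttagtgtgtAAtaattgatcttgc
Uqcrc2: gctgtcctagtgtcAAtaaagcattgtgt
Psat1: tcctttctcaaagAAtaacgactaaacat
These windows belong to Elovl1 at chr4:118432456-118432484 (plus strand), Ranbp2 at chr10:58494112-58494140 (plus strand), Uqcrc2 at chr7:120659241-120659269 (plus strand) and Psat1 at chr19:15905896-15905924 (minus strand). Elovl1 encodes a fatty acid elongase, Ranbp2 a nuclear pore protein, Uqcrc2 a core subunit of respiratory complex III and Psat1 an enzyme of serine synthesis. Of these 4 windows, the one of Uqcrc2 continues as the whole poly(A) signal.

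The third set shows deletions of 2 adjoining bases in alternating adenine and thymine.
Psma1: cacagaaaccATATAatggggtgcatttt
Rbm39: gtctggttgcATATAatctttgctctttt
Cenpa: acttttatttaaaATATAaggaagaaaaa
Atox1: gtccttccggATATAaactgaagaggcag
These windows belong to Psma1 at chr7:114264733-114264761 (minus strand), Rbm39 at chr2:156147391-156147419 (minus strand), Cenpa at chr5:30674348-30674376 (plus strand) and Atox1 at chr11:55450457-55450485 (minus strand). Psma1 encodes an alpha subunit of the 20S proteasome, Rbm39 a splicing factor, Cenpa the centromeric histone H3 variant and Atox1 a copper chaperone. Hspa9, which encodes a mitochondrial chaperone, ranked between Cenpa and Atox1, and its sequence is not shown. The Cenpa site lay 468 nt from the end used for its distance but only 16 nt from the end of another M21 transcript.

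The fourth set shows deletions in runs of adenine.
Ttc9c: aaaccttAAAAAAAAgtgtaccctaataa
Jade1: cacaaaaacataacAAAAAAAAAAAAAgc
Tspan13: tgtAAAAAAAAAAAAtacgaagttcaaaa
Slc25a4: ataaaacAAAAAAAAgagacagatcttgg
These windows belong to Ttc9c at chr19:8810144-8810172 (minus strand), Jade1 at chr3:41616150-41616178 (plus strand), Tspan13 at chr12:36014946-36014974 (minus strand) and Slc25a4 at chr8:46207375-46207403 (minus strand). Jade1 and Tspan13 encode a chromatin-associated PHD finger protein and a tetraspanin, and Slc25a4 encodes an ADP/ATP carrier of mitochondria.

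Among the 3410 far deletions of 1 or 2 bases, which took in 4356 of the far sites, 1030 (30.2%, 28.7 to 31.8%) lay in 3 or 4 thymines before adenine. A further 580 (17.0%, 15.8 to 18.3%) lay in 2 or 3 adenines before thymine and adenine, 568 (16.7%, 15.4 to 18%) in alternating adenine and thymine, and 181 (5.31%, 4.58 to 6.11%) in 6 or more adenines. The remaining 1051 (30.8%) fell outside the 4 settings. Of these, 706 were 1-base deletions. The rest were 2-base deletions, the name given here to any pair of adjoining sites. They could not enter the thymine setting or that of 2 or 3 adenines, as both took 1-base deletions only. The 2-base deletion of Rack1, in 4 thymines before adenine, was therefore counted here. The other 315 far sites stood in blocks of 3 or more adjoining sites or in pairs that could not be placed whole on 1 transcript at 100 nt or more, and were not assigned. Each setting was set against every position at 100 nt or more from the end in the 3' UTRs of the same transcripts, each transcript weighted by its deletions. Of 1-base deletions, 41.8% lay in the thymine setting, which held 2.50% of all positions, a ratio of 16.7. The share was 23.5% in the setting of 2 or 3 adenines, against 1.03% of positions (ratio 22.9), and 6.01% in runs of 6 or more adenines, against 0.722% of positions (ratio 8.32). Of 2-base deletions, 60.0% lay in alternating adenine and thymine, against 2.59% of positions (ratio 23.1). At near 1-base deletions the thymine setting held 29.6%, 2 or 3 adenines 39.5% and adenine runs 3.29%. Alternating adenine and thymine held 42.9% of near 2-base deletions. In coding sequence the shares were, in the same order, 40.2%, 28.5%, 2.02% and 64.2%. The ratios to positions of the same region were 8.65, 13.7, 3.00 and 9.14 at near deletions and 50.5, 51.2, 5.63 and 45.1 in coding sequence.

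**Figure D1:**
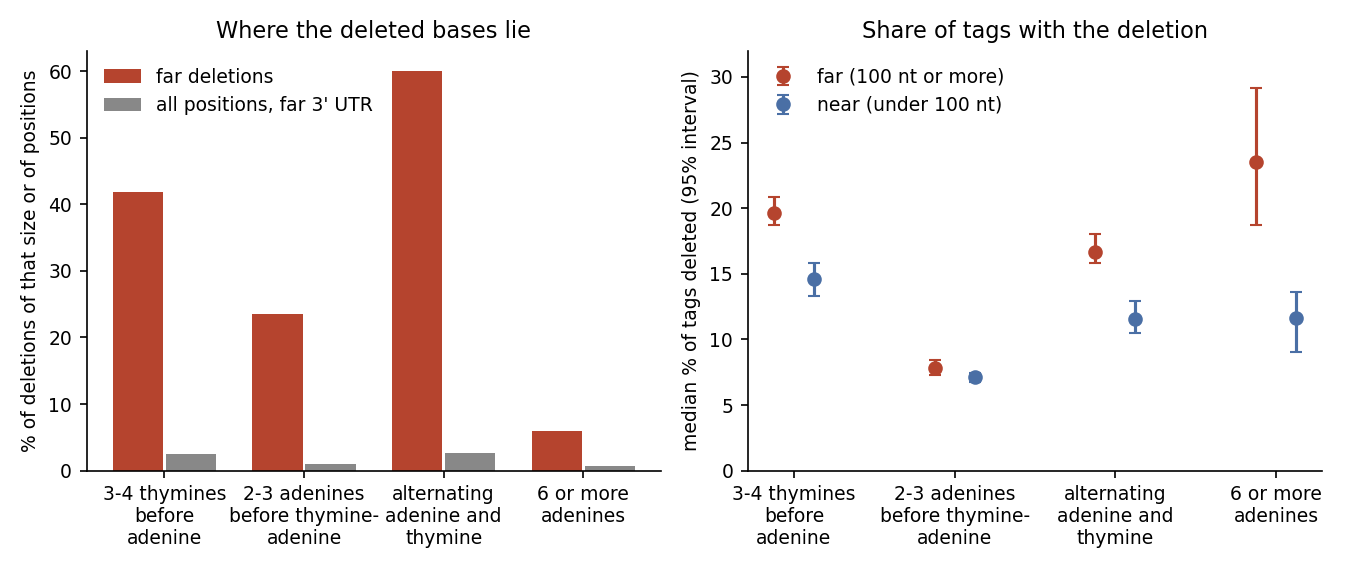
Left, share of far deletions (red) and of all positions of the same far 3' UTRs (grey) in each sequence setting, with 2-base deletions for alternating adenine and thymine and 1-base deletions for the others. Right, median percent of tags deleted with its 95% interval at far (red) and near (blue) deletions; the medians of far deletions run from 7.83% before thymine-adenine to 23.5% in runs of 6 or more adenines.

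The bases after the runs with a deletion differed from those after other runs. These shares describe the same deletions as the thymine and adenine settings, which were defined after the deleted bases had been seen. They are therefore no separate support for the settings. Of 1022 far 1-base deletions in exactly 3 thymines, 84.4% (82.1 to 86.6%) were followed by adenine, against 35.7% of all runs of 3 thymines in the same far 3' UTRs. Cytosine followed in 6.36% of them, against 29.5% of all such runs, and guanine in 9.20%, against 34.7%. After 4 thymines, adenine followed in 58.8% of 284 deletions (52.8 to 64.6%), against 36.7% of all such runs. Of 342 deletions in exactly 2 adenines, 90.9% (87.4 to 93.8%) were followed by thymine and adenine, against 11.6% of all pairs of adenines. Of 293 deletions in exactly 3 adenines, 91.8% (88.1 to 94.7%) were so followed, against 18.3% of all such runs. A thymine directly before an adenine, in the movable stretch or the 2 bases after it, was found at 74.4% of the 2464 far 1-base deletions (72.7 to 76.1%), against 15.2% of all positions. The same share was 78.5% at near deletions, against 20.3% of positions there, and 77.8% in coding sequence, against 8.08%. Deletions in the thymine setting and in 2 or 3 adenines before thymine and adenine have such a thymine by definition. The stretch searched is also longer in a run, and deletions lay in runs more often than positions did.

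Most far deletions could not be assigned to a single base. Of the 2464 1-base deletions, 95.2% lay in a run of identical bases, against 49.2% of all positions. The list names the base at the lower genome coordinate of such a run. On the plus strand 94.2% of 1-base deletions could be moved downstream and 0.902% upstream, and on the minus strand 1.04% could be moved downstream and 95.1% upstream. Of the 946 pairs of adjoining sites, 97.8% could be moved. In 671 of them both bases had the same number of deletions, which is how a single 2-base deletion is listed. The counts differed by at most 10% in 768 pairs (81.2%). Every pair was taken as a 2-base deletion whatever its counts, as in Eif4g2 with 295 and 10 deletions at 568 and 569 nt. The settings were not counted again without the unequal pairs. The sequence settings had similar shares on both strands. The thymine setting held 29.4% of deletions on the plus strand (27.3 to 31.6%) and 31.0% on the minus strand (28.8 to 33.3%), and alternating adenine and thymine held 17.6% and 15.7% on these strands. Whether the alignment of deletions in repeats adds to their number in the list was not tested.

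Runs of 3 bases were the most frequent length, also at near 1-base deletions (49.0%) and in coding sequence (55.1%). They held 53.7% of far 1-base deletions (51.7 to 55.7%), against 13.1% of all positions, and 1022 of these 1323 runs were thymine and 293 adenine. Single bases with no identical neighbour held 4.83% of the deletions, against 50.8% of positions. Runs of 8 or more bases held 5.84%, against 0.937% of positions, and 128 of these 144 runs were adenine. A run of at least 6 thymines was not more frequent near far sites than at other positions: TTTTTT lay within 20 nt of 4.67% of far sites (4.08 to 5.31%), against 5.00% of all positions.

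**Figure D2:**
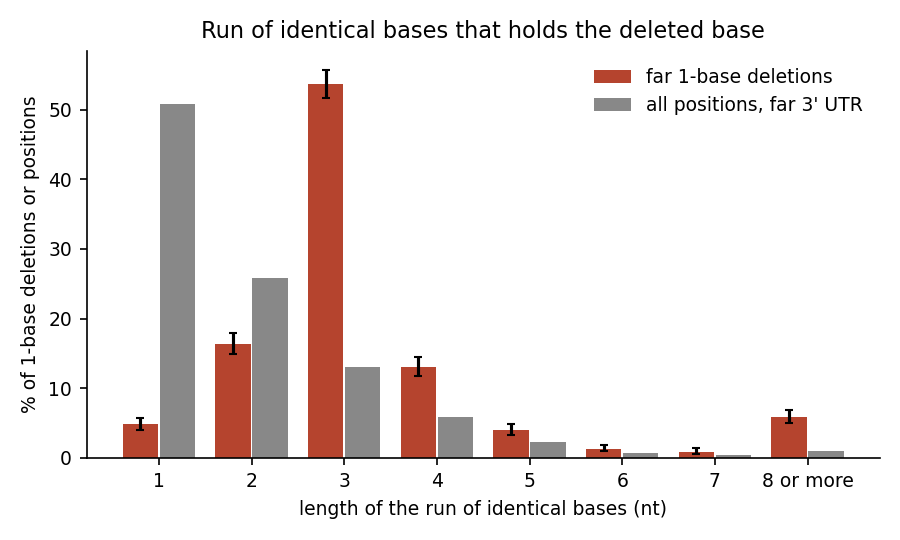
Percent of far 1-base deletions (red, exact 95% interval) and of all positions of the same far 3' UTRs (grey) by the length in nt of the run of identical bases that holds the base. At a length of 3 the deletions reach 53.7% and the positions 13.1%.

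Short motifs around the far sites followed the same settings. The hexamer ATATAA lay wholly within 20 nt of 15.2% of far sites (14.2 to 16.3%), against 1.76% of all positions, and had the highest ratio (8.62) of the 1039 hexamers found in at least 50 windows. GATATA had a ratio of 8.18, AATATA a ratio of 6.29 and CATATA a ratio of 5.76. The poly(A) signal AATAAA, which directs cleavage of the pre-mRNA when it stands near an end, lay by 17.7% of far sites (16.6 to 18.8%), against 3.51% of positions (ratio 5.03). AAATAA had a ratio of 4.89, ATATAT a ratio of 4.64, AAAAAA a ratio of 4.26, ATAAAG a ratio of 4.25 and TATAAC a ratio of 4.19. The ratios depended on the width of the window. Within 10 nt and 50 nt they were 17.9 and 3.99 for ATATAA, 8.42 and 2.90 for AATAAA, and 5.98 and 2.58 for AAAAAA. Each listed base was counted, so that a 2-base deletion, frequent at ATATAA, counted as 2 sites. With 1 site a run, ATATAA lay by 10.9% of sites (ratio 6.68), AATAAA by 17.6% (ratio 5.18) and AAAAAA by 12.5% (ratio 4.05). At the other end of the ranking, CTGCCT lay by 1.18% of far sites, against 2.45% of positions.

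AAAAAA lay by 13.6% of far sites (12.6 to 14.6%), against 3.18% of positions. The second poly(A) signal, ATTAAA, was much less enriched, with 3.75% of far sites against 2.29% of positions (ratio 1.64). TATTTA, the core of AU-rich elements that mark short-lived mRNAs, lay by 4.82% of far sites against 2.47% of positions (ratio 1.95). TGTANATA, the recognition sequence of Pumilio proteins, lay by 1.97% against 0.860% (ratio 2.29). Of the far sites by TGTANATA, 19 also had ATATAA, and at 8 of them both motifs shared bases. Near sites were counted only where the whole window lay inside the transcript, which left 3340 of them. AATAAA lay by 17.7% of far sites and 48.9% of these near sites, and ATATAA by 15.2% and 9.28%. Among near positions the shares were 23.3% for AATAAA (ratio 2.10) and 4.32% for ATATAA (ratio 2.15). Both near ratios were below those of far sites. In coding sequence ATATAA lay by 21.5% of sites, against 1.25% of positions.

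The sites of most deletions by the rarer motifs were spread over the 3' UTR. By ATTAAA they were in Minos1, which encodes a subunit of the mitochondrial MICOS complex, with 126 of 2096 tags deleted, in Nme1, a nucleoside diphosphate kinase gene, with 119 of 683, and in Arpc2, an Arp2/3 complex gene, with 76 of 315. The Minos1 site was 1996 nt from the end used for its distance and 19 nt from the end of another M21 transcript. By TATTTA they were in Cenpa with 234 of 1248 tags deleted, in Mrps35, a mitochondrial ribosomal protein gene, with 191 of 572, and in Adipor1, an adiponectin receptor gene, with 132 of 395. The Mrps35 site was also 19 nt from the end of another M21 transcript. By TGTANATA they were in Wdhd1, a gene of DNA replication, with 122 of 904, in Impad1 with 108 of 769 and in Wdr43, a factor of small ribosomal subunit assembly, with 103 of 250.

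How closely the deletions gathered at 1 place differed between these motifs. Of 324 far 2-base deletions with ATATAA within 20 nt, 256 (79.0%) began at the first base of the motif once moved to their 5'-most place. Of 513 far 1-base deletions by AATAAA, 133 (25.9%) began at its first adenine and 129 (25.1%) at an adenine directly before it. Of 162 by TATTTA, 94 (58.0%) fell on its 3 thymines. By AAAAAA the picture was split, with 148 of 316 1-base deletions (46.8%) inside a run of 6 or more adenines and 112 (35.4%) at a thymine. Among the 10 sites of most deletions, 4 were blocks of adjoining bases at AATAAA, and capitals here mark the listed bases.
Sub1: acctagtgtgtaaAATaaagtcagatcat
Pomp: tgttataaaaacgcAATaaagtccccggg
Yars: ccactgtcaagttCAAataaagtgtctga
Slc25a4: ctattcttgaggaAATAAaacaaaaaaaa
These windows belong to Sub1 at chr15:11983986-11984014 (minus strand), Pomp at chr5:147875740-147875768 (plus strand), Yars at chr4:129219202-129219230 (plus strand) and Slc25a4 at chr8:46207389-46207417 (minus strand). Sub1 encodes the transcription coactivator PC4, Pomp the proteasome maturation protein and Yars a tyrosyl-tRNA synthetase. The Slc25a4 block lies just before the adenine run shown above, so that its window held AAAAAA too.

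In the Sub1 3' UTR, 469 of 2308 tags were deleted (20.3%, 18.7 to 22.0%) at 2661 nt from the annotated end and 218 nt after the stop codon. The Pomp site had 382 of 4755 tags deleted (8.03%) at 702 nt, the Yars site 361 of 2332 (15.5%) at 391 nt and the Slc25a4 site 327 of 1971 (16.6%) at 606 nt. No annotated M21 transcript ended within 100 nt downstream of these 4 sites. At far sites whose window held AATAAA and no ATATAA, the peak around the site ended within 50 nt downstream at 43.3% of 734 sites (39.7 to 47.0%). The share was 25.9% at sites with ATATAA, 20.4% at sites with AAAAAA alone and 13.4% at sites with none of the 3 motifs. For near sites, in the same order, it was 86.0%, 63.4%, 43.6% and 29.9%.

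The annotation set bears on these values. Of all far sites, 520 (11.1%) lay under 100 nt from the end of some M21 transcript other than those used for the distance. This was so for 21.7% of the sites by AATAAA (18.8 to 24.8%), 7.18% of those with ATATAA, 7.09% of those with AAAAAA and 9.90% of those with none. With these sites left out, a peak edge within 50 nt was still found at 40.9% of the sites by AATAAA (36.8 to 45.0%) and at 13.2% of those with no motif. Ends used by these cells but not annotated were not analysed here.

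The share of tags deleted differed between the settings. Its median was 19.6% (18.8 to 20.8%) in the thymine setting, 16.7% (15.8 to 18.1%) in alternating adenine and thymine and 23.5% (18.8 to 29.2%) in runs of 6 or more adenines. In 2 or 3 adenines before thymine and adenine it was 7.83% (7.32 to 8.41%). The median number of deletions was similar, at 12, 13, 11 and 13 in these 4 settings. The settings differed instead in coverage, with medians of 75 tags in the thymine setting, 103 in alternating adenine and thymine, 53 in adenine runs and 200.5 before thymine and adenine. At sites under 51 tags the thymine setting held 42.9% of deletions (39.5 to 46.3%) and the setting before thymine and adenine 3.86% (2.67 to 5.37%). Above 200 tags these shares were 16.2% (14 to 18.6%) and 27.9% (25.2 to 30.7%).

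Over all far sites the median share of tags deleted was 13.0% (12.5 to 13.5%), against 8.33% at near sites (8.0 to 8.59%). The median coverage was 122 tags at far sites and 206 at near sites. The share was higher at sites of few tags, far or near, and the part of the calling rule in this was not tested. At sites of 1 to 50 tags the median was 32.3% for far and 32.9% for near sites, with intervals that overlap. At 51 to 100 tags it was 15.5% for far sites (14.8 to 16.1%) and 13.6% for near sites (13.1 to 14.6%). Over 100 and up to 200 tags it was 9.66% for far sites (9.09 to 10.1%) and 8.76% for near sites (8.41 to 9.09%), with intervals that touch. Above 200 tags the intervals overlapped. At equal coverage the medians of far and near sites lay closer together than over all sites.

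**Figure D3:**
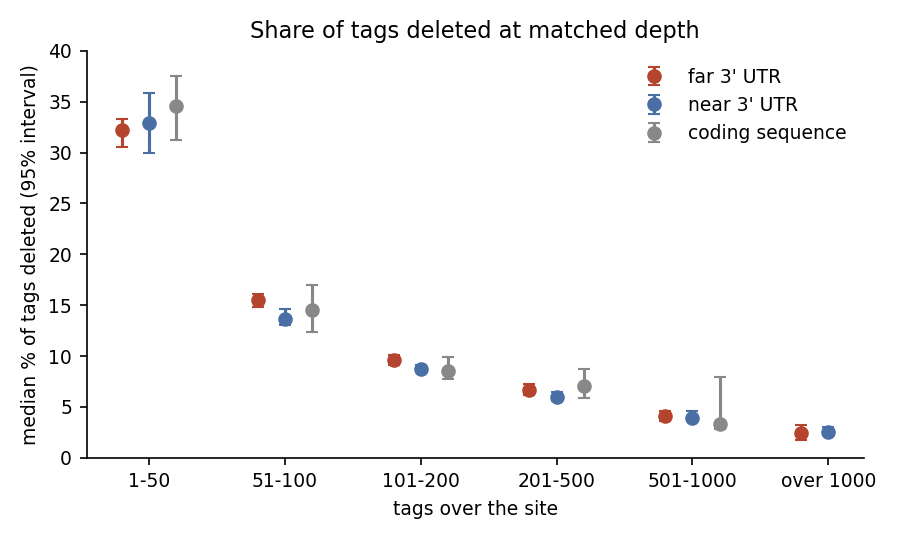
Median percent of tags deleted, with its 95% interval, at far 3' UTR sites (red), near 3' UTR sites (blue) and coding sites (grey) by the number of tags over the site. Far and near medians lie close together in each range, from 32.3% and 32.9% at 1 to 50 tags to 2.42% and 2.53% above 1000 tags.

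Far sites lay toward both ends of the 3' UTR. Their median distance to the annotated end was 632 nt, with quartiles of 254 and 1519 nt and a highest value of 13360 nt, and their median distance from the stop codon was 422 nt. In the 1600 transcripts with a 3' UTR of at least 1200 nt that held any 3' UTR site, where every bin is equally long, there were 1.28 sites per kb at 100 to 200 nt before the end. The density was 0.456 at 500 to 600 nt and 0.675 at 1000 to 1100 nt, and the last 100 nt, which hold only near sites, had 6.99 per kb. Counted from the stop codon, the density was 1.23 sites per kb in the first 100 nt, 1.53 in the next 100 nt and 0.563 at 900 to 1000 nt. The thymine setting held 29.7% of deletions at under 250 nt from the end, 28.8% at 250 to under 1000 nt and 32.1% farther away, with overlapping intervals. Alternating adenine and thymine held 13.3% (11.1 to 15.8%), 17.1% (15.1 to 19.3%) and 18.4% (16.3 to 20.7%) in the same order, and the intervals of the first and the last range do not overlap. Deletions in none of the 4 settings made up 37.4% (34.1 to 40.8%), 31.3% and 25.9% (23.5 to 28.4%), so that they were less frequent farther from the end. This class also holds 2-base deletions in thymines or adenines, and its change with distance was not split by deletion size.

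**Figure D4:**
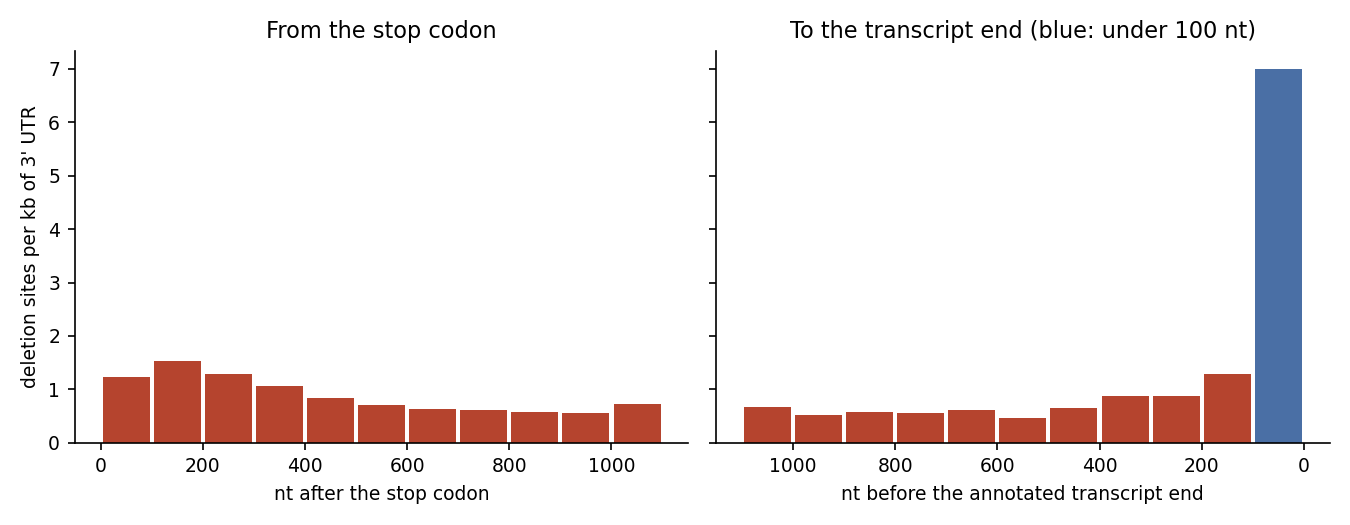
Deletion sites per kb of 3' UTR in bins of 100 nt after the stop codon (left) and before the annotated transcript end (right) in 1600 transcripts with a 3' UTR of at least 1200 nt; blue marks the near sites. The density is 6.99 per kb in the last 100 nt and 1.28 in the bin before it, and on the stop side it is highest at 100 to 200 nt, at 1.53.

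The site of most deletions was in Psma1, with 741 of 2397 tags deleted (30.9%, 29.1 to 32.8%) at 141 nt from the end. Actb, which encodes beta-actin, followed with 644 of 2329 tags (27.7%) at 226 nt, in a block of 4 listed bases at the end of an adenine run. Clta had 432 of 1427 tags deleted (30.3%) at 162 nt and Mbnl1 396 of 1121 (35.3%) at 256 nt, both in 3 thymines before adenine. Rack1, a ribosome-bound scaffold protein, had 342 of 1574 tags deleted (21.7%) at 4 nt after its stop codon. That site was 385 nt from the end used for its distance and 24 nt from the end of another M21 transcript. Eif4g2, a relative of the scaffold factor eIF4G, had 295 of 1513 (19.5%) at 568 nt. In 8 of the 10 genes, all but Mbnl1 and Yars, the site of most deletions lay within 250 nt after the stop codon.

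A few far sites were deleted in most of their tags. Of all far sites, 362 (7.75%, 7.00 to 8.55%) were deleted in at least 50% of tags, against 145 near sites (3.55%). Far sites more often had few tags, with 1145 far and 414 near sites at 1 to 50 tags. The part of coverage in this contrast was not tested. Among far sites with at least 100 tags, the highest shares were 91.0% in Mfap3 (111 of 122 tags), 84.5% in the ubiquitin-conjugating enzyme gene Ube2o (93 of 110) and 80.1% in Ube4b (145 of 181), which encodes a ubiquitin chain assembly factor. The next were Pabpc2 (85 of 108 tags), Ttc9c (208 of 267), Gla (81 of 104), Pfn1 (106 of 146) and Tbl1xr1 (84 of 116). Ttc9c, Ube2o and Gla, the alpha-galactosidase A gene, had the deletion in 8, 11 and 9 adenines. The Mfap3 and Tbl1xr1 deletions lay in alternating adenine and thymine. Pabpc2 is an intronless copy of Pabpc1 whose reads can come from its parent gene, it had no RPKM, and its value is therefore uncertain. Pfn1, which encodes the actin-binding protein profilin, had its site 23 nt from the end of an M21 transcript other than those used for the distance. For none of these sites could a deletion in the DNA of the line be told apart from one made at a cross-link.

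The farthest sites had few deletions. Serbp1, which encodes an mRNA-binding protein, had 14 of 75 tags deleted at 13360 nt and 417 nt after its stop codon. Tnrc6b, a partner of Argonaute proteins in microRNA silencing, had 9 of 182 at 11408 nt, and Ago2, an Argonaute protein, 6 of 24 at 10365 nt. Zfp846 had 10 of 29 at 10401 nt and Tmem245 8 of 28 at 10340 nt. The Tnrc6b and Zfp846 sites were 331 and 186 nt from the end of another M21 transcript. At the threshold, Psat1, Rtca and Hnrnpa2b1 had sites at 100 nt with 95, 83 and 68 deletions, and Rtca, Hnrnpa2b1 and Mgea5 had sites at 99 nt with 83, 67 and 49 deletions. The 2 bases of the Rtca pair fell on either side of it.

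Most genes had a single stretch of far sites. Sites within 10 nt of each other were joined into 3291 runs, and 1381 genes had 1 run, 395 had 2, 172 had 3 and 53 had 5 or more. Neighbouring runs in a gene lay a median of 105 nt apart (91 to 122 nt), and 35.0% were within 50 nt. Of the genes with a far site, 30.8% also had a near site. Mbnl1 and Scd2, which encodes a stearoyl-CoA desaturase, had 11 runs each, and Mtdh, a gene overexpressed in several cancers, had 10. Mcl1, an anti-apoptotic relative of Bcl2, had 9, while Eif4g2, Hnrnpa0, Rlim and Mtpn had 8. Bri3bp and Rad21, a subunit of cohesin, had 7 each.

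The sites of these 10 genes were arranged in different ways. In Mbnl1 all 15 sites lay 178 to 860 nt from the end, and 1 site at 256 nt carried 396 of its 671 deletions. That sum is over listed bases, so a deletion of adjoining bases is counted at each of them. In Rad21 all 9 sites lay at 420 to 878 nt, and its site of most deletions had 101. Scd2 had its 12 nearest sites at 140 to 487 nt and the other 3 at 2064, 2864 and 3438 nt. In Mtdh all 12 sites lay at 2118 nt or more, and Rlim, which encodes a ubiquitin ligase, had its 9 sites spread over 1113 to 5231 nt. Bri3bp had 1 site at 282 nt and 12 between 5278 and 5405 nt. Mtdh, Mcl1, Mtpn and Rad21 had no near site, whereas Eif4g2, Hnrnpa0 and Rlim had 5 each.

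**Figure D5:**
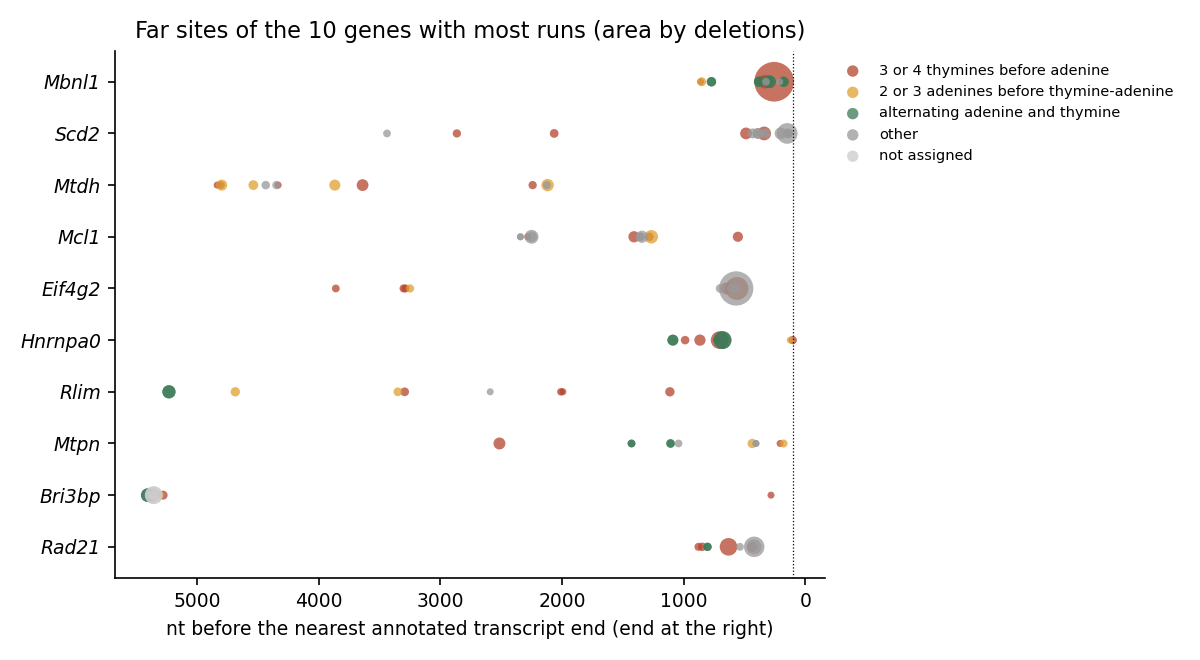
Far sites of the 10 genes with most runs, 1 row a gene, by distance in nt from the nearest annotated transcript end (at the right; dotted line at 100 nt). Circle area grows with the number of deletions and colour gives the sequence setting; the largest circle is the Mbnl1 site with 396 deletions.

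Genes with a far site were the more abundant ones. Of 9784 genes with an RPKM of at least 1 and a 3' UTR over 100 nt, 2050 (21%) had a far site. The share was 3.35% at an RPKM of 1 to 5, 13.3% at 5 to 20, 24.2% at 20 to 50, 34.9% at 50 to 100 and 48.6% (45.5 to 51.7%) above 100. It was 7.48% for 3' UTRs over 100 and up to 300 nt and 29.1% for those over 2000 nt. The median RPKM was 42.4 for genes with a far site and 19.6 for all genes tested. Across 2051 genes, which are not independent replicates and share 1 pooled library, the highest coverage at a far site and the RPKM had a Spearman's rho of 0.426. The number of far runs and the length of the 3' UTR had a rho of 0.0861.

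The identity of the cells was checked in the RPKM values. All 10 markers of erythroid MEL cells were at 19.6 to 428 RPKM, with Klf1 at 428 and Gata1 at 211. Of 10 fibroblast markers 4 reached 1 RPKM, with Vim at 541 and Thy1 at 65.3, while Col1a2, Col3a1 and Fn1 were not listed. Of 10 markers of other blood cells 2 did, with Pf4, a platelet gene, at 216 and Ptprc at 11.8. The part of other cells in the far sites was not tested.

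Far sites were counted in 13 gene lists against the share of 21% over all genes tested, with no test. The far deletions given for a gene in these lists are summed over its listed bases. A deletion of adjoining bases is therefore counted at each of them. The leading genes were ranked by this sum, which was not made again with such deletions counted singly. In the lists for the machinery of protein production, 18 of 38 translation factor genes (47.4%, 31.0 to 64.2%) had a far site, led by Eif4g2 with 537 far deletions, Eif3a with 389 and Eef2, the elongation factor, with 297. Of cytosolic ribosomal protein genes 10 of 41 did (24.4%, 12.4 to 40.3%), led by Rpl4 with 297, Rpl14 with 153 and Rpl15 with 88. These genes have many processed pseudogenes, so the placement of their tags is uncertain. Of chaperone genes 17 of 25 had a far site (68.0%, 46.5 to 85.1%), led by Hspa9 with 572, Canx with 455 and Hspa5 with 280. Of proteasome and ubiquitin genes 8 of 27 had a far site (29.6%, 13.8 to 50.2%). Psma1 led them with 1490, before Uba1 with 381 and Psmc6 with 367. The sum of Psma1 takes in each base of an adjoining pair, with 741 deletions at its listed site of most deletions.

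Among RNA-binding proteins, 23 of 35 hnRNP and SR genes (65.7%, 47.8 to 80.9%) had a far site, led by Hnrnpa0 with 336 far deletions, Hnrnpk with 279 and Hnrnpu with 233. Of the genes for AU-rich element and other 3' UTR binding proteins 11 of 23 did (47.8%), led by Fmr1 with 185, Celf2 with 113 and Celf1 with 87. Of the genes for poly(A) tail binding, deadenylation and decay 15 of 45 did (33.3%, 20.0 to 49.0%). They were led by Tnrc6b with 199, Cnot11, a subunit of the CCR4-NOT deadenylase, with 98, and Pabpc1 itself with 94. The decapping activator Ddx6 had 92.

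In erythroid genes 16 of 29 had a far site (55.2%, 35.7 to 73.6%). Hbb-bs had 236 far deletions and Hbb-bt 56, but these beta-globin genes are near-identical and share reads, and their counts cannot be separated. Epb41, which encodes protein 4.1 of the red cell membrane, had 184 and the transcription factor gene Lmo2 78. In the cell cycle list 14 of 26 genes did (53.8%), led by the cyclin gene Ccnd2 with 449 deletions at 17 sites, Cdk4 with 224 and Pcna with 82. Of the immediate-early and growth control genes 5 of 22 did (22.7%, 7.82 to 45.4%), led by Mcl1 with 238, Nras with 90 and Bcl2 with 6. Of actin and cytoskeleton genes 11 of 24 did (45.8%), led by Actb with 1110, Pfn1 with 152 and Arpc2 with 148. Of nuclear-encoded respiratory chain genes 15 of 32 did (46.9%), led by Ndufa10 of complex I with 361, Uqcrc2 with 341 and Atp5a1 of ATP synthase with 261. Of sterol and fatty acid synthesis genes 10 of 26 did (38.5%, 20.2 to 59.4%). Scd2 led them with 364, before Elovl1 with 251 and Sc5d with 150. The lists also differ in abundance, with a median RPKM of 386 for chaperones, 131 for hnRNP and SR genes and 22.0 for immediate-early genes. Their median 3' UTR length ran from 239 nt for respiratory chain genes to 2756 nt for AU-rich element and other 3' UTR binding proteins. The part of abundance and of 3' UTR length in their shares was not tested.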

How the data were processed

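CLIP-seq tags of 3 samples and mRNA-seq reads of 2 samples were pooled by the authors before deposit. The deposited deletion list gives, per site, the authors' count of tags with a deletion and, per the file terms, the count of tags over the base, here read as coverage. The deposited peak list of 90337 peaks gives each peak a score, read as its height in tags. Abundance is the authors' RPKM, with 1 deposited value a gene, and 18059 of its 18349 identifiers were in GENCODE M21. Per the submitters' processing notes, the tools were HTSeq 0.6.0, TopHat2 2.0.12, Novoalign 3.02.02 and cutadapt 1.4.2, with build mm10. The name of the deposited deletion list carries tags that may stand for a cutoff and for the removal of duplicate tags, but their meaning, the call thresholds and the treatment of PCR copies are not given in the sources used here. Total depth per sample is unknown, and far sites had 3 to 10706 tags, which sets the precision of each share.

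Sites were placed by strand on GENCODE M21 basic transcripts, and spliced sequence came from the M21 transcript sequences (Python 3.11.15, numpy 2.4.6, pandas 2.3.3, scipy 1.17.1). Windows ran 20 nt either side of a site. Motifs were searched on the mRNA strand only, and overlapping matches counted. Each far site had 1 class, ATATAA before AATAAA before AAAAAA. Backgrounds used every position, with no random draws. No test was made, because no value per replicate could be had. Intervals are exact Clopper-Pearson or order-statistic intervals at 95%. The placement, the movable stretch, the motif windows and the intervals were tested on simulated data.

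Named sites were the 10 of most deletions (1 a gene), the 8 of highest share deleted with at least 100 tags, the 5 farthest, and those nearest to the threshold on either side, together with the 3 leading sites by each motif, the 10 genes of most runs, the 10 hexamers of highest ratio and leading members of each gene list. The members and lists were chosen with earlier results of these data known, and the sequence settings were chosen after the deleted bases had been seen. Alternatives changed the distance, window, annotation, minimum deletions, sites per run or gene, peaks, region order and minimum RPKM.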

Additional observations from a re-analysis of the deposited data

How the results depend on the processing

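Every alternative was compared with the interval of the value in the report, and 45 of 81 values stayed inside it. The share of far sites by ATATAA was 14% at 50 nt or more from an end, 16.4% at 500 nt or more, 10.9% with 1 site a run, 12.6% with 1 site a gene and 18.1% in windows of 50 nt. The share by AATAAA was 16.4% at 50 nt or more and also 16.4% with all M21 transcripts, 19.7% with 1 site a gene, 20.2% with at least 10 deletions, and 13.4% and 25.9% in windows of 10 and 50 nt. The share by AAAAAA was 12.1% at 50 nt or more, 14.6% at 200 nt or more, 15.3% at 500 nt or more, 12.5% with 1 site a run, 12.1% with 1 site a gene, 9.59% and 19.5% in windows of 10 and 50 nt, and 12.3% for sites deleted in under 50% of tags. The median share of tags deleted was 12.0% at 50 nt or more, 14.1% with 1 site a run, 17.0% with 1 site a gene and 12.4% with at least 10 deletions. Far sites made up 54.6% of 3' UTR sites with 1 site a run, 49.8% with at least 10 deletions and 51.7% with all M21 transcripts. Genes with a far site made up 20.1% at an RPKM of at least 0.5, 24.3% at an RPKM of at least 5, 15.2% with at least 10 deletions and 17.4% at 200 nt or more. The cause of these shifts was not tested, apart from the windows, which hold fewer or more bases by construction. In alternatives chosen after seeing the data, 2 or 3 adenines before thymine and adenine held 19.6% of far deletions with at least 10 deletions, 18.6% with 1 deletion a gene and 18.3% for those deleted in under 50% of tags. Alternating adenine and thymine held 18.6% with 1 deletion a gene, and runs of 6 or more adenines held 6.30% at 500 nt or more and 4.02% for those deleted in under 50% of tags. The thymine setting stayed inside its interval under all 7 alternatives run for it. Leaving out the 10 genes of most far runs, also chosen after seeing the data, moved none of the 8 values it was run for out of its interval. Leaving out a replicate could not be run, since the lists are pooled. No paired analysis was possible because no value per replicate was given in the files used here.

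The share deleted was higher at sites of few tags, and the part of the calling rule in this was not tested. Deletions in repeats are placed by convention, so a position inside a run carries no information on the contacted base. An end missing from the annotation makes a near site count as far. No count of input or control RNA was analysed here, so the spread of deletions over sequence in RNA without PABPC1 is not known.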
